A study of Mus musculus with 8 samples.

Results

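The genes of retinoid transport and metabolism described here were 9 of the 28956 genes in the count tables, chosen by name: Rbp4, Stra6, Aldh1a1, Aldh1a2, Aldh1a3, Crabp1, Crabp2, Cyp26b1 and Dhrs3. All 9 were listed in the tables of all 8 libraries. They were chosen with earlier results of these data known. The tables came from droplet single-cell RNA sequencing of bone stromal cells of C57BL/6 mice, taken from the femur and depleted of blood lineage, CD45 and CD117 cells with magnetic beads. The Control group came from 12-week-old unfractured wild-type females. The Fracture group came from females whose left femur was broken by three-point bending at 10 weeks of age, held by an intramedullary nail and collected at day 14. Each group held 2 cell preparations (Control-1, Control-2, Fracture-1 and Fracture-2), as the sample titles were read, each sequenced as 2 libraries, and the preparation was the unit of replication (n = 2 per group). Whether the 2 libraries of a preparation came from separate mice or from 1 cell suspension was not stated, and n and every p rest on this reading. How many mice a preparation pooled was not stated in the labels, so the spread between preparations may be technical in part.

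Vitamin A (retinol) leaves the liver bound to the carrier protein Rbp4 and can enter cells through the receptor Stra6. Inside the cell retinol is oxidised to retinal, which Dhrs3 reduces back to retinol, and the retinal dehydrogenases Aldh1a1, Aldh1a2 and Aldh1a3 turn retinal into retinoic acid. Crabp1 and Crabp2 bind retinoic acid in the cytoplasm, Cyp26b1 breaks it down, and in the nucleus it acts on receptors that sit on DNA as pairs. In the growth plate retinoic acid signalling is known to influence the maturation of chondrocytes.

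Rbp4 had the highest level of the 9 genes over all stromal cells of Fracture, so its promoter windows are shown. Promoter windows of 300 bases from RefSeq (GRCm38.p6, 250 before and 50 after a transcription start) were used for 7 of the 9 genes, 14 windows in all, and those of Aldh1a3 and Crabp2 were not used here. In the first Rbp4 window, chr19:38124762-38125061 on the minus strand, the capitals mark a TATA box, and in the second, chr19:38125272-38125571 on the minus strand, they mark a retinoic acid receptor half-site read on the other strand:
Rbp4 window 1: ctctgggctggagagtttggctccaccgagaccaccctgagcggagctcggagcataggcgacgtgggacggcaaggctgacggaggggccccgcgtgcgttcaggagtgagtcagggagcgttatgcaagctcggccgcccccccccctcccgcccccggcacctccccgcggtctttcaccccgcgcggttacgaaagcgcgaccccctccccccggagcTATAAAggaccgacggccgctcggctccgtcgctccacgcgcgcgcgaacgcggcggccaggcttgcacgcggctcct
Rbp4 window 2: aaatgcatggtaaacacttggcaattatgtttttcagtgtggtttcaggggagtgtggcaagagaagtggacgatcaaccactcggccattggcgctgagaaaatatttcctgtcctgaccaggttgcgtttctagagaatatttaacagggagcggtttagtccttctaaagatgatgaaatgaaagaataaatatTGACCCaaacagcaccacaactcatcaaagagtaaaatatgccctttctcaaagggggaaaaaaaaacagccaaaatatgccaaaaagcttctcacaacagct
The TATAAA began 28 bases and the half-site 53 bases upstream of the annotated start. The half-site letters searched on both strands were AGGTCA with its variant AGTTCA as well as GGGTCA with its variant GGTTCA (none of them contains or is contained in TATAAA), and 43.7% of the 32851 windows in the table held at least 1 of them, against 3 of the 14 windows of these genes (in Stra6, Aldh1a1 and Rbp4). Such half-sites in direct repeat with a spacing of 1, 2 or 5 bases stood in 0.222%, 0.268% and 0.0974% of all windows and in 0 of the 14. TATAAA stood in 13.6% of all windows and in 2 of the 14 (in Cyp26b1 and Rbp4). These matches describe letters in the windows and are not binding sites.

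After filtering 45328 cells remained, 20676 of Control and 24652 of Fracture. The libraries held 56543151 to 89126291 UMIs (unique molecular identifiers, 1 per captured transcript molecule), and no pair of libraries shared more than 23 barcodes. Cells were clustered without the 9 genes and the clusters were named from lists of marker genes, which gave 6 stromal classes (chondrocyte-like, osteoblast-like, BMSC-like for bone marrow stromal cells, fibroblast-like, endothelial-like and smooth muscle-like) and 3 blood classes (erythroid-like, granulocyte-like and megakaryocyte-like). The makeup of the groups differed, since there were 2064 and 678 chondrocyte-like cells in Control-1 and Control-2 but 6801 and 7124 in Fracture-1 and Fracture-2, while BMSC-like cells numbered 2639, 1730, 1082 and 1175. Levels below are in CPM, the UMIs of the gene per 1000000 UMIs of that class in that preparation, always in the order Control-1, Control-2, Fracture-1, Fracture-2. Changes are log2 differences of Fracture over Control from edgeR with TMM scaling, given with their standard error (SE) and a p adjusted over all genes tested in that class, and a call is an adjusted p under 0.05. TMM moved the median of all genes relative to plain CPM by at most 0.25 on the log2 scale.

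Rbp4 and Aldh1a3 were set beside free RNA, the RNA of broken cells that enters all droplets. Erythroid-like cells, which should lack Rbp4 and Aldh1a3, held Rbp4 at 2.97 and 0.54 CPM in Control and 98.8 and 40.1 CPM in Fracture. That was 13.6% and 6.1% of the level over all cells in Fracture-1 and Fracture-2, beside a median of 6.5% and 5.0% for the 9 chondrocyte marker genes (Acan, Col2a1 and others) in the same erythroid-like cells. For Aldh1a3 the erythroid-like cells stood at 10.3% and 2.2%. When each cell was thinned to 1000 UMIs, a Rbp4 UMI was found in 0.27% ± 0.31 of the erythroid-like cells of Control and 3.12% ± 0.57 of those of Fracture, and an Aldh1a3 UMI in 0.082% ± 0.12 and 1.00% ± 0.45 (mean ± SD, n = 2). In chondrocyte-like cells thinned alike, the Rbp4 share was 9.84% ± 0.54 in Control and 38.2% ± 0.84 in Fracture, and the Aldh1a3 share 2.08% ± 0.40 and 13.1% ± 0.34. The groups did not overlap in any of these shares, and the exact two-sided permutation test gave p = 0.333 for each, the smallest value that 2 against 2 preparations allow. Without thinning, the mean Rbp4 share was 77.9% in chondrocyte-like and 18.9% in erythroid-like cells of Fracture, whose median depth was 12303 and 13194 UMIs per chondrocyte-like cell and 7370 and 7297 UMIs per erythroid-like cell. A share at or below that of erythroid-like cells was read as background.

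In chondrocyte-like cells 8 of the 9 genes passed the filter on low counts, 5 were called higher and 2 lower, where 37.2% of all genes tested were called (19.2% higher and 18% lower). In BMSC-like cells 4 of 9 were higher and 2 lower, where 51.6% of all genes were called (25.5% higher, 26.1% lower). In osteoblast-like cells 2 of 7 were higher and 2 lower (9.35% and 6.36% of all genes, 15.7% in all), and in fibroblast-like cells 1 of 8 was higher and 3 lower (8.54% and 7.74%, 16.3% in all). In endothelial-like cells 3 of 7 were higher and 2 lower (19.4% and 17.2%, 36.6% in all), and in smooth muscle-like cells 3 of 6 were higher and 3 lower (14.3% and 12.8%, 27.1% in all). These shares of all genes are the background against which the counts stand. Since the genes were chosen with earlier results known, a count above the background is not read as a result about the set. Some of the called genes passed the filter through 1 group alone and so had to differ, namely Aldh1a3 in osteoblast-like, endothelial-like and smooth muscle-like cells and Crabp2 in BMSC-like and endothelial-like cells through Fracture, and Aldh1a1 in smooth muscle-like and Aldh1a2 in osteoblast-like, fibroblast-like and smooth muscle-like cells through Control. The median log2 change of the members tested was 0.89 in chondrocyte-like, 1.05 in BMSC-like and 0.77 in smooth muscle-like cells. It was -0.37 in osteoblast-like, -0.61 in fibroblast-like and -0.10 in endothelial-like cells. The median of all genes lay between -0.03 and 0.01 in these classes. In 4 classes the counts rest on both Fracture preparations. Without either of them, edgeR called no gene at all in chondrocyte-like, osteoblast-like, fibroblast-like or endothelial-like cells, although 1683 to 4689 genes per class had an unadjusted p under 0.05, and no other tool was run on 3 preparations. In erythroid-like cells 0 of 4 and in granulocyte-like cells 0 of 5 genes were called by edgeR (0% of all genes in each). There 921 and 2668 of all genes had an unadjusted p under 0.05, and DESeq2 called 329 genes higher and 47 lower in erythroid-like and 751 higher and 416 lower in granulocyte-like cells.

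**Figure D1:**
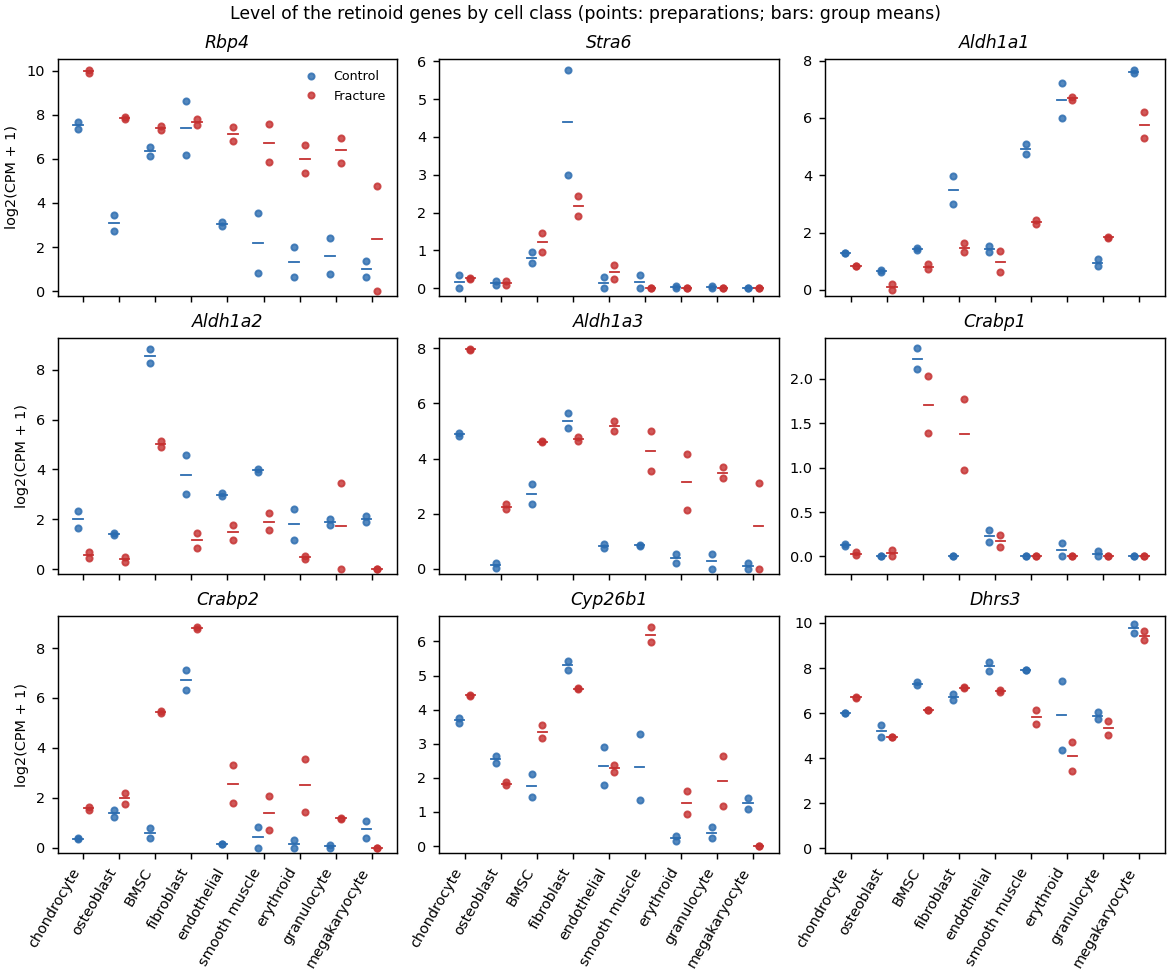
Level of each gene as log2(CPM + 1) (vertical axis) in 9 cell classes (horizontal axis), with a point for each preparation and a bar at each group mean, Control in blue and Fracture in red. Rbp4 and Aldh1a3 stood highest in chondrocyte-like cells of Fracture, Aldh1a2 in BMSC-like cells of Control and Crabp2 in fibroblast-like cells.

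**Figure D2:**
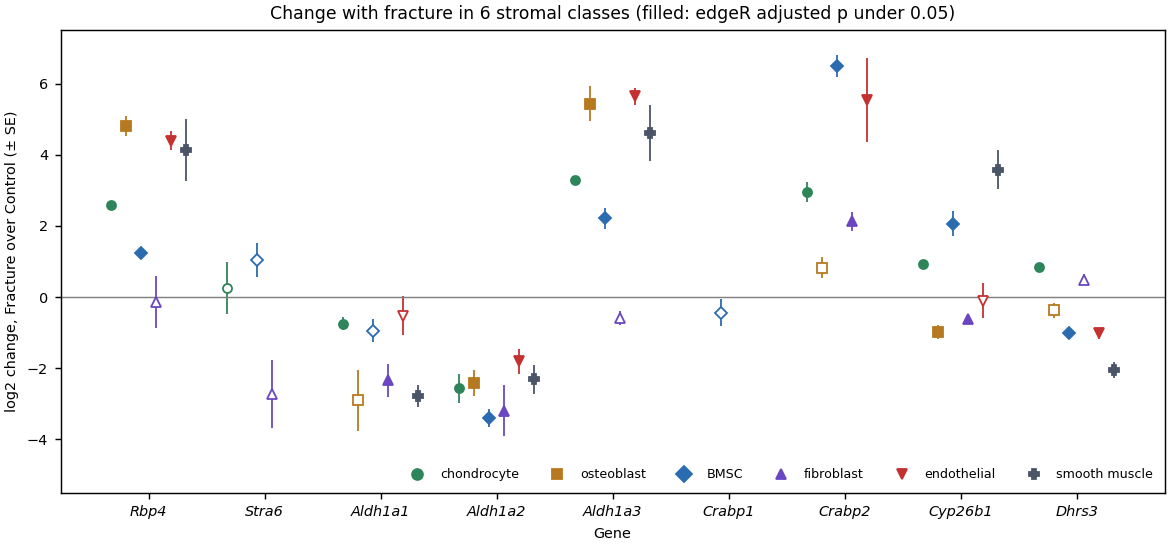
Log2 change of Fracture over Control with its SE (vertical axis) for each gene (horizontal axis) in the 6 stromal classes, with filled symbols for an edgeR adjusted p under 0.05. The values for Aldh1a2 lay below 0 in all 6 classes, and those for Rbp4 lay above 0 in all but fibroblast-like cells.

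Rbp4 (chr19:38116629-38125281, minus strand, GRCm38), the plasma retinol carrier, rose 6.02-fold in chondrocyte-like cells, from 203 and 164 CPM to 1037 and 958 CPM (log2 2.59, SE 0.12, adjusted p = 0.0014). The groups did not overlap, and the 4 libraries of Fracture held 953 to 1062 CPM against 157 to 211 CPM in those of Control. Chondrocyte-like cells held 65.3% of all Rbp4 UMIs in Control and 90.2% in Fracture. The rise was seen in both chondrocyte clusters, with 322, 247, 1193 and 1098 CPM in the cluster led by Col10a1 and Ihh (log2 2.10, adjusted p = 0.0024) and 45.6, 47.4, 201 and 180 CPM in the cluster led by Serpina1a (log2 2.14, adjusted p = 0.0036). Col10a1 is the collagen of hypertrophic cartilage and Ihh the signal made by maturing chondrocytes, and the first cluster held 13064 cells and the second 3603. The first made up 1136 of 2064 and 401 of 678 chondrocyte-like cells in Control, and 5626 of 6801 and 5901 of 7124 in Fracture. Changes over the whole class therefore hold this shift in makeup as well as the level within clusters. Of the 9 genes 7 passed the filter in each cluster, and 5 were higher and 1 lower in the first (15.8% and 14.7% of all genes, 30.6% in all) and 4 higher and 0 lower by edgeR in the second (8.26% and 5.05%, 13.3% in all). Rbp4 was among the genes leading the first cluster although it was left out of the clustering.

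In osteoblast-like cells, the bone-forming cells, Rbp4 rose from 9.91 and 5.65 CPM to 235 and 223 CPM (log2 4.81, SE 0.28, adjusted p = 0.0040). That was 32.4% and 33.8% of the level over all cells in the 2 Fracture preparations, where the 9 chondrocyte markers had a median of 2.8% and 2.7% in the same cells. Aldh1a3, which stands beside Rbp4 in chondrocyte-like cells, was at 2.1% and 2.6% there. The single markers reached from 2.3% to 70.8% in Fracture-1 and from 2.4% to 73.3% in Fracture-2, and Col10a1 was at 3.3% and 3.2%. The summed chondrocyte marker level in osteoblast-like cells was 9455 and 8812 CPM in Control and 7410 and 7459 CPM in Fracture. In the osteoblast fine cluster led by Gal, Rbp4 was at 9.63, 6.18, 296 and 271 CPM.

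In the other stromal classes Rbp4 rose in BMSC-like cells from 92.1 and 68.8 CPM to 156 and 180 CPM (log2 1.25, SE 0.17, adjusted p = 0.0056). The makeup of the BMSC-like cells also shifted between the groups, as given below with their subclasses. Rbp4 rose in endothelial-like cells from 7.70 and 6.89 CPM to 174 and 111 CPM (log2 4.40, SE 0.26, adjusted p = 0.0047). In smooth muscle-like cells it went from 10.7 and 0.78 CPM to 192 and 57.4 CPM (log2 4.13, SE 0.87, adjusted p = 0.023), and 1 preparation moved this value, to 7.18 without Control-1, 3.54 without Control-2, 3.12 without Fracture-1 (adjusted p = 0.15) and 4.83 without Fracture-2 (adjusted p = 0.061). In all 3 classes the summed level of the chondrocyte markers was higher in Fracture as well. It went from 448 to 936 CPM in BMSC-like cells of Control to 3884 to 4125 CPM in Fracture, from 1191 to 2574 CPM in endothelial-like cells of Control to 15498 to 15746 CPM in Fracture, and from 1354 to 1507 CPM to 7768 to 12076 CPM in smooth muscle-like cells. Their part in the Rbp4 rise was not tested. In Fracture, Rbp4 in endothelial-like cells was at 23.9% and 16.8% of the level over all cells, beside a median of 21.9% and 22.3% for the chondrocyte markers. None of the 9 markers was at 0 in any stromal class.

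In fibroblast-like cells Rbp4 did not pass the test. Control-1 was at 391 CPM and Control-2 at 71.3 CPM, and the Fracture preparations lay between them at 222 and 183 CPM (log2 -0.14, SE 0.74, adjusted p = 0.92). The value depended on 1 preparation, since the log2 change was 1.63 without Control-1 and -0.90 without Control-2. Each of these fits kept 1 Control preparation, so the spread within Control did not enter. Within the fibroblast-like cells a fine cluster led by the cartilage genes Cytl1 and Ucma held 114 cells of Control-1 and 27 of Control-2, with Rbp4 at 1269, 300, 635 and 502 CPM, and the preparations overlapped there as well. The Rbp4 change in osteoblast-like cells exceeded that in fibroblast-like cells by 4.89 on the log2 scale (SE 0.55, adjusted p = 4.7e-06), and that in chondrocyte-like cells exceeded it by 2.60 (adjusted p = 0.00087). For these tests, the class-by-group term of edgeR was fitted over all 6 classes with the preparation as a block and adjusted over all genes and all 15 pairs of classes. That fit took a common spread per gene for all classes. The fibroblast-like change fitted alone had an SE of 0.74, so the p-values of pairs with this class may understate its spread. Of the 135 tests on the 9 genes 51 passed, where 23.3% of all 256110 tests did, and the genes were chosen with earlier results known.

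Among the BMSC-like cells, 3 subclasses were named from markers after a second clustering, diaphyseal (dpMSC-like), metaphyseal (mpMSC-like) and septoclast-like cells, the last being stromal cells that resorb cartilage matrix. Rbp4 rose in septoclast-like cells from 35.9 and 30.02 CPM to 253 and 371 CPM (log2 3.27, SE 0.22, adjusted p = 0.0027), the one call among 4 genes tested there (4.31% of all genes were higher and 3.47% lower, 7.78% in all). The chondrocyte markers were higher in Fracture over the BMSC-like cells, as given above, and the part of such RNA in the septoclast-like rise was not tested. In mpMSC-like cells, which the septoclast-like cells overlap, the level went from 74.1 and 75.0 CPM up to 181 and 238 CPM (log2 1.62, adjusted p = 0.0036). This value did not stand in all cells of the subclass, as Rbp4 went from 34.9 and 29.2 CPM to 267 and 355 CPM in the fine cluster led by Mmp9 and from 121 and 108 CPM to 103 and 82.1 CPM in the one led by Kcnk2, and in the cells purest by markers the log2 change was -0.35 (adjusted p = 0.13). The Mmp9-led cluster held 24.3% of the mpMSC-like cells of the second clustering in Control and 39.7% in Fracture. The part of this shift in the mpMSC-like change was not tested. In dpMSC-like cells Rbp4 was at 100 and 68.8 CPM in Control and 117 and 97.6 CPM in Fracture (log2 0.59, adjusted p = 0.059). Of the 9 genes 5 passed the filter in mpMSC-like cells, with 2 higher and 2 lower (15.1% and 13.1% of all genes, 28.2% in all), and 8 in dpMSC-like cells, with 3 higher and 2 lower (27.4% and 26.9%, 54.2% in all). Without Fracture-1 edgeR called no gene in either of these subclasses, and without Fracture-2 none in mpMSC-like or septoclast-like cells, although 1571 to 6390 genes had an unadjusted p under 0.05.

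In Control, chondrocyte-like cells (164 to 203 CPM) stood above BMSC-like cells (68.8 to 92.1 CPM) in Rbp4, the range of fibroblast-like cells (71.3 to 391 CPM) overlapped both, and all other classes were at 10.7 CPM or less. In Fracture the order was chondrocyte-like, osteoblast-like, fibroblast-like and BMSC-like, followed by endothelial-like, smooth muscle-like, granulocyte-like and erythroid-like cells, and from BMSC-like cells on the range of each class overlapped that of the next.

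Stra6 (chr9:58063788-58153996, plus strand), the receptor that takes up retinol from Rbp4, was found mainly in fibroblast-like cells, at 7.03 and 53.6 CPM in Control and 2.74 and 4.40 CPM in Fracture (21, 70, 20 and 40 UMIs). The groups did not overlap, but the Control preparations differed from each other and the change did not pass the test (log2 -2.73, SE 0.95, adjusted p = 0.12 with edgeR, 0.018 with DESeq2), with log2 values of -0.89 without Control-2 and -3.74 without Control-1. The Control-2 value came largely from the fine cluster led by Cfd and Penk, at 8.05, 110, 2.30 and 2.33 CPM. In BMSC-like cells Stra6 was at 0.58, 0.94, 0.95 and 1.75 CPM (log2 1.05, adjusted p = 0.13), and in the other classes at 0.52 CPM or less. The gene overlaps Ccdc33 on the opposite strand and Gm16131 on the same strand, so reads may be shared.

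Among the enzymes that make retinoic acid, Aldh1a3 rose in chondrocyte-like cells and Aldh1a2 fell in BMSC-like cells. Aldh1a3 (chr7:66390890-66427517, minus strand) rose 9.72-fold in chondrocyte-like cells, from 27.1 and 29.7 CPM to 253 and 244 CPM (log2 3.28, SE 0.076, adjusted p = 0.00077). The libraries of Control held 17.2 to 41.8 CPM and those of Fracture 219 to 286 CPM. Chondrocyte-like cells held 95.7% of the Aldh1a3 UMIs of Fracture. Within them the Col10a1-led cluster was at 46.2, 47.9, 298 and 284 CPM (log2 2.73) and the Serpina1a-led cluster at 1.79, 4.10, 16.8 and 21.1 CPM (log2 2.94, and 2.28 without Control-1 and 3.55 without Control-2). The level in the first cluster lay above that in the second in every preparation. That cluster made up a larger part of the class in Fracture, as given for Rbp4, so the 9.72-fold rise is not a change per cell alone. The part of the makeup in it was not tested.

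Within the Col10a1-led cluster, the cells were divided by whether a UMI of Ihh or Col10a1 was found among 1000 UMIs drawn from each cell. Aldh1a3 was at 116, 96.7, 580 and 561 CPM in cells with an Ihh UMI, at 98.8, 106, 333 and 322 CPM in cells with Col10a1 but no Ihh, and at 3.2, 4.2, 26.9 and 24.4 CPM in cells with neither. Aldh1a3 was lowest in cells with neither in every preparation, and in Fracture it was highest in those with Ihh. Cells with neither numbered 718, 252, 1726 and 1851, beside 325, 104, 2734 and 2876 with Col10a1 but no Ihh. Rbp4 was less unequal, at 72.4, 115, 1407 and 1309 CPM in the Ihh cells, 305, 273, 1210 and 1157 CPM in the Col10a1 cells and 375, 265, 1006 and 849 CPM in cells with neither. In Control the cells with an Ihh UMI held the lowest Rbp4 level of the 3 sets and in Fracture the highest, although these sets held 88 and 44 cells in Control. Cyp26b1 was higher in cells with neither (9.4, 13.7, 26.0 and 25.2 CPM) than in the Ihh cells (4.9, 2.1, 12.1 and 13.02 CPM). The division used no member gene, and no test was run on it because it was made from the same cells.

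**Figure D3:**
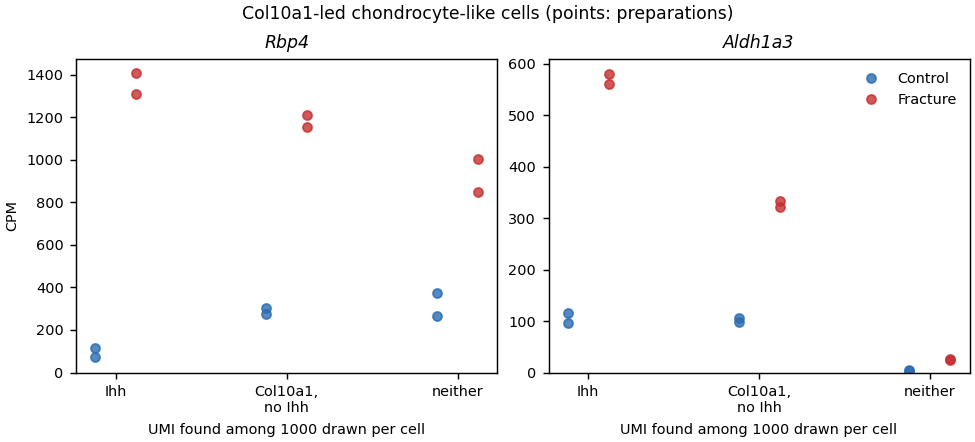
CPM (vertical axis, from 0) of Rbp4 (left) and Aldh1a3 (right) in the Col10a1-led chondrocyte-like cells, divided by whether Ihh or Col10a1 was found among 1000 UMIs drawn per cell (horizontal axis), with a point for each preparation, Control in blue and Fracture in red. Aldh1a3 was lowest in cells with neither (3.2 and 4.2 CPM in Control, 26.9 and 24.4 CPM in Fracture) and reached 580 CPM in Fracture cells with Ihh. Rbp4 was less unequal between the 3 sets.

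Outside the chondrocyte-like cells, Aldh1a3 rose in BMSC-like cells from 7.37 and 4.16 CPM to 23.1 and 23.8 CPM (log2 2.21, SE 0.28, adjusted p = 0.0050), beside the higher chondrocyte marker levels given for Rbp4 in BMSC-like, endothelial-like and smooth muscle-like cells, whose part was not tested. It went in endothelial-like cells from 0.68 and 0.86 CPM to 31.1 and 40.3 CPM (log2 5.64, SE 0.25, adjusted p = 0.0047), and in smooth muscle-like cells from 3 and 1 UMIs to 48 and 17 UMIs (log2 4.61, SE 0.78, adjusted p = 0.012, and 3.66 with adjusted p = 0.11 without Fracture-1). In both it passed the filter through the Fracture group alone. In osteoblast-like cells it went from 1 and 3 UMIs to 63 and 88 UMIs, or 3.45 and 4.07 CPM (log2 5.44, adjusted p = 0.0089, and 4.52 without Control-1 and 6.64 without Control-2), and it passed the filter there through the Fracture group alone. The thinned share in osteoblast-like cells of Fracture, 0.46% ± 0.39, was below that of erythroid-like cells and was read as background. Fibroblast-like cells were at 33.1, 49.8, 26.6 and 23.9 CPM, with the groups apart but the test not passed (log2 -0.59, adjusted p = 0.11), and the change in chondrocyte-like cells exceeded theirs by 3.80 (SE 0.33, adjusted p = 3.2e-07). Septoclast-like cells were at 34.1, 18.3, 29.2 and 35.6 CPM, and their groups overlapped (log2 0.32, adjusted p = 0.55). In dpMSC-like cells Aldh1a3 rose from 2.75 and 1.89 CPM to 15.3 and 20.6 CPM (log2 3.19, SE 0.28, adjusted p = 0.0012). In the order of levels, chondrocyte-like cells stood far above all other classes in Fracture, while fibroblast-like cells stood first in Control.

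The number of Aldh1a3 UMIs per 100 Rbp4 UMIs was also compared between classes. In the Fracture preparations it was 24.9 and 25.9 in the Col10a1-led and 8.38 and 11.7 in the Serpina1a-led chondrocyte-like cells, 18.0 and 36.4 in endothelial-like cells and 16.4 and 18.7 in smooth muscle-like cells. It was 14.9 and 13.2 in BMSC-like, 12.0 and 13.1 in fibroblast-like, 17.4 and 8.55 in erythroid-like and 9.68 and 15.9 in granulocyte-like cells. Osteoblast-like cells had the lowest values of these classes, 1.47 and 1.83. In septoclast-like cells it was 94.9 and 61.0 in Control and 11.6 and 9.61 in Fracture.

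**Figure D4:**
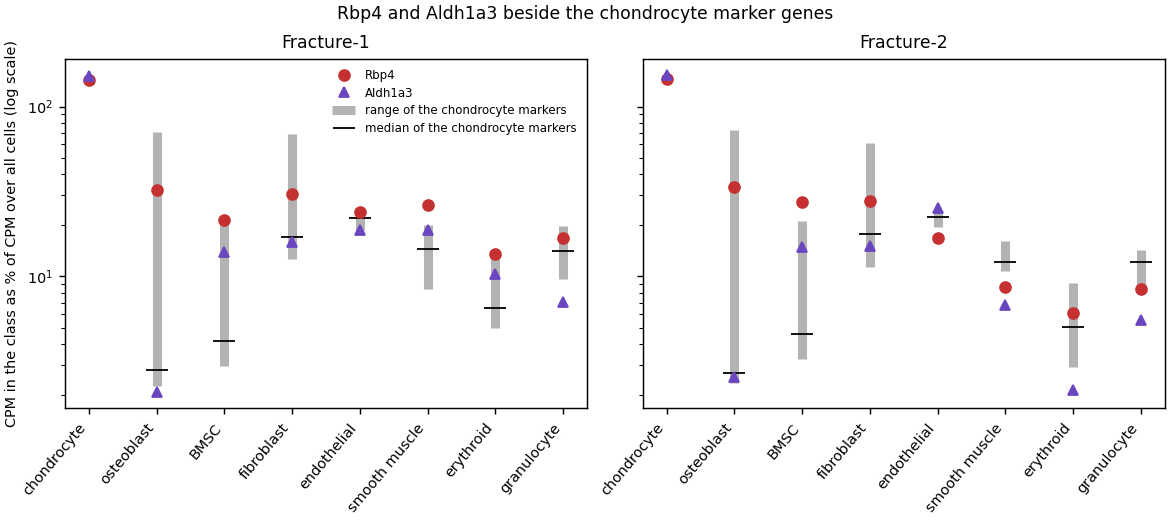
Level in each class as a percentage of the level over all cells (vertical axis, log scale) in the 2 Fracture preparations (panels), for Rbp4 (circles) and Aldh1a3 (triangles), with a grey bar for the range and a black line for the median of the 9 chondrocyte marker genes. In osteoblast-like cells Rbp4 lay at 32.4% and 33.8%, above the marker medians of 2.8% and 2.7% but within the markers' range, while in endothelial-like cells both genes lay near the markers.

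Aldh1a2 (chr9:71215789-71296243, plus strand) fell 10.6-fold in BMSC-like cells, from 305 and 457 CPM to 28.6 and 34.5 CPM (log2 -3.40, SE 0.25, adjusted p = 0.0021). The 4 libraries of Control held 303 to 485 CPM and those of Fracture 24.2 to 43.0 CPM, with no overlap. BMSC-like cells held 94.1% of all Aldh1a2 UMIs in Control and 78.7% in Fracture. When these cells were thinned to 1000 UMIs, 28.6% ± 4.0 of them had an Aldh1a2 UMI in Control and 3.88% ± 0.53 in Fracture (exact permutation p = 0.333, the smallest possible), against 0.35% ± 0.20 and 0% of erythroid-like cells.

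The fall of Aldh1a2 went with that of the markers of the class itself. The 7 BMSC markers (Cxcl12, Lepr, Adipoq and others) summed to 27146 and 28642 CPM in BMSC-like cells of Control and 1965 to 2266 CPM in those of Fracture, and fibroblast markers rose there from 49 to 128 CPM to 993 to 1154 CPM. In the BMSC-like cells purest by markers (205 and 238 cells in Fracture) the log2 change was -1.48 (adjusted p = 0.0072), and in the dpMSC-like cells purest by markers it was -0.90 (adjusted p = 0.058). The part of the markers' fall in the change was not tested further. By fine cluster, Aldh1a2 was at 471, 611, 71.6 and 102 CPM in the one led by Adipoq, at 240, 310, 85.4 and 79.5 CPM in the one led by Kcnk2, at 107, 191, 3.32 and 3.49 CPM in the one led by Cfd and Penk, and at 24.3, 54.1, 9.07 and 18.3 CPM in the one led by Mmp9. All 4 were lower in both Fracture preparations than in either Control preparation.

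Among the subclasses, dpMSC-like cells went from 456 and 589 CPM to 29.3 and 45.2 CPM (log2 -3.57, SE 0.28, adjusted p = 0.00098). Different fine clusters held the largest part of them in the 2 groups, since 74.9% of the dpMSC-like cells of Control were in the Adipoq-led cluster, against 39.7% in Fracture, where 49.3% were in the Cfd-led cluster. In mpMSC-like cells Aldh1a2 went from 140 and 208 CPM to 36.7 and 41.0 CPM (log2 -2.03, adjusted p = 0.0046). Septoclast-like cells were at 25.3, 55.7, 9.74 and 19.3 CPM (log2 -1.38, adjusted p = 0.13, and -1.99 without Fracture-2 to -0.71 without Control-2).

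Aldh1a2 was called lower in all 6 stromal classes, at levels far below those of BMSC-like cells in the other 5. In osteoblast-like, fibroblast-like and smooth muscle-like cells it passed the low-count filter through Control alone, so those 3 calls are given as values only. The BMSC markers were lower in Fracture in several of these classes too, with summed levels of 1931 to 2367 CPM in Control and 736 to 813 CPM in Fracture in endothelial-like, 1813 to 1926 and 1095 to 1251 CPM in smooth muscle-like, 596 to 712 and 242 to 261 CPM in fibroblast-like and 124 to 194 and 40 to 46 CPM in osteoblast-like cells, and their part was not tested. It went from 15.3 and 14.0 CPM to 1.96 and 3.79 CPM in smooth muscle-like cells (log2 -2.32) and from 7.24 and 6.64 CPM to 2.44 and 1.25 CPM in endothelial-like cells (log2 -1.81, adjusted p = 0.020). It went from 7.03 and 23.0 CPM to 0.82 and 1.76 CPM in fibroblast-like cells (log2 -3.19, and -3.97 to -2.32 with 1 preparation left out, lowest without Fracture-2 and highest without Control-2). In chondrocyte-like and osteoblast-like cells it was at 4.04 CPM or less in every preparation, and the log2 changes were -2.57 and -2.42 (-3.02 in osteoblast-like cells without Fracture-2), while the thinned shares in Control (0.22% and 0.23%) were below that of erythroid-like cells (0.35%) and were read as background. In Control, the level in endothelial-like cells was 18.1% and 10.4% of that over all cells, in chondrocyte-like cells 10.1% and 3.4%, and in erythroid-like cells 10.8% and 2.0%. With doublets removed, the endothelial-like change was -0.86 (adjusted p = 0.20). Of the 15 pairs of classes only BMSC-like and endothelial-like cells differed in the change (-1.56, adjusted p = 0.042), where 23.3% of all such tests passed.

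**Figure D5:**
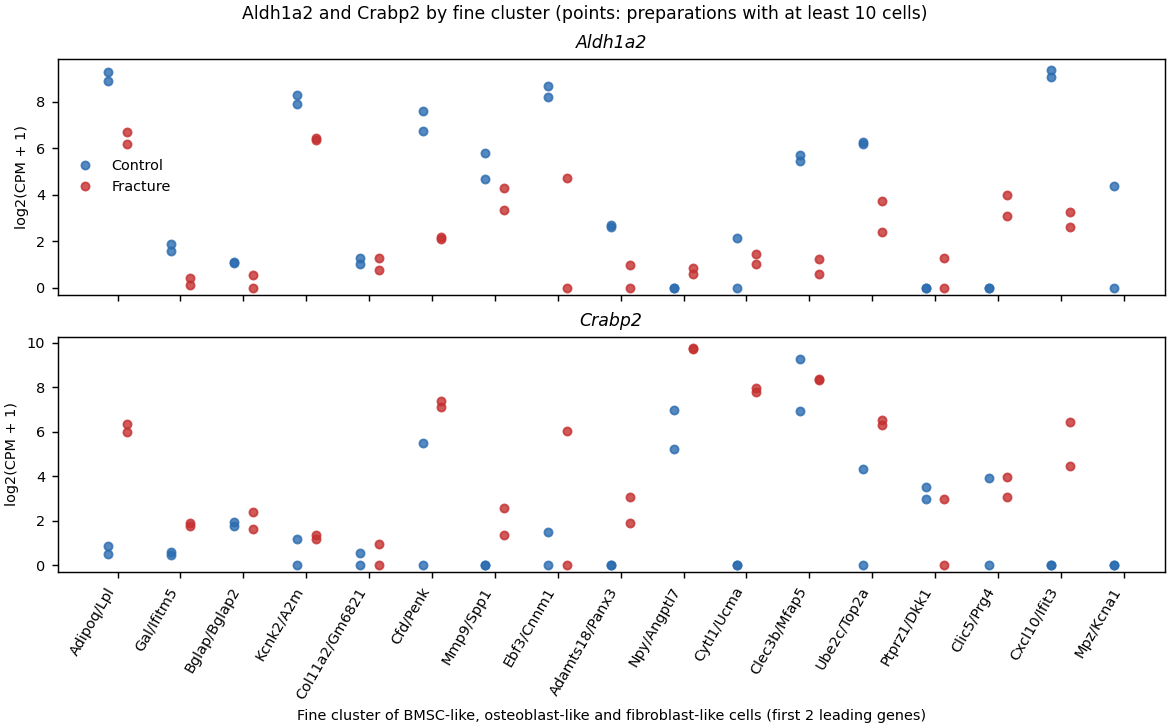
Level of Aldh1a2 (top) and Crabp2 (bottom) as log2(CPM + 1) (vertical axis) in the fine clusters of BMSC-like, fibroblast-like and osteoblast-like cells, each named by its 2 first leading genes (horizontal axis), with a point for each preparation of at least 10 cells, Control in blue and Fracture in red. Aldh1a2 was lower in both Fracture preparations of the Adipoq-led cluster, and Crabp2 was at 885 and 848 CPM in Fracture in the one led by Npy and Angptl7.

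Aldh1a1 (chr19:20492715-20643465, plus strand), the third dehydrogenase, stood highest outside the stroma. Megakaryocyte-like cells were at 202, 187, 38.2 and 72.7 CPM, but with 10 and 14 cells in the Fracture preparations no test was run. Erythroid-like cells were at 62.8, 148, 98.3 and 104 CPM with no change that passed the test (log2 0.12, adjusted p = 0.97) and held 69.0% of all Aldh1a1 UMIs in Control and 66.8% in Fracture. In smooth muscle-like cells Aldh1a1 fell from 26.0 and 33.4 CPM to 3.93 and 4.42 CPM (log2 -2.78, SE 0.31, adjusted p = 0.0039), where it passed the low-count filter through Control alone. The 6 megakaryocyte markers, 1 of them at 0 in each group, summed to 376 to 392 CPM in Control and 20.9 to 24.0 CPM in Fracture in these cells, and the 6 basophil markers, 3 of them at 0 in Fracture, to 67.6 to 421 and 11.1 to 16.4 CPM. It fell in fibroblast-like cells from 7.03 and 14.6 CPM to 1.51 and 2.09 CPM (log2 -2.33, SE 0.46, adjusted p = 0.034), where the megakaryocyte markers were at 88.1 to 313 and 38.4 to 70.7 CPM and the basophil markers at 54.4 to 713 and 4.93 to 6.17 CPM. The part of these markers in either fall was not tested, nor was that of RNA from erythroid-like cells, which held most Aldh1a1 UMIs. In chondrocyte-like cells Aldh1a1 was at 1.44, 1.46, 0.78 and 0.77 CPM (log2 -0.75, SE 0.19, adjusted p = 0.043), a call that was lost with DESeq2. The changes in osteoblast-like (adjusted p = 0.087), BMSC-like (0.063) and endothelial-like cells (0.48) did not pass. Aldh1a7 is a near-identical copy of Aldh1a1, and C730002L08Rik and Gm6684 overlap it on the opposite strand, so its counts are uncertain.

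Of the proteins that bind retinoic acid in the cytoplasm, Crabp2 (chr3:87948666-87953376, plus strand) rose and Crabp1 did not pass the test. Crabp2 was highest in fibroblast-like cells, which held 76.6% of its UMIs in Control and 81.7% in Fracture, and it was among the genes leading that cluster. Its level there went up from 79.3 and 139 CPM to 454 and 435 CPM (log2 2.13, SE 0.26, adjusted p = 0.012). The libraries of Control-2 differed from each other, at 33.3 and 246 CPM, whereas the 4 Fracture libraries lay between 432 and 457 CPM. The fine cluster led by Npy and Angptl7 was at 126, 36.4, 885 and 848 CPM, and the one led by Clec3b at 121, 625, 329 and 323 CPM, where the groups overlapped. The fibroblast markers themselves summed to 21987 and 22681 CPM in Control and 7864 and 8402 CPM in Fracture. A Crabp2 UMI was found in 3.54% ± 0.65 of thinned fibroblast-like cells of Control and 26.4% ± 0.80 of those of Fracture, against 0% and 0.22% ± 0.31 of erythroid-like cells.

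In BMSC-like cells Crabp2 rose from 0.71 and 0.31 CPM to 40.8 and 43.9 CPM (log2 6.498, SE 0.32, adjusted p = 0.0015, and 7.23 without Control-1), with 11 and 4 UMIs in Control, so that it passed the filter through Fracture alone. The same was true in dpMSC-like cells, which went from 0.84 and 0.47 CPM to 67.4 and 76.8 CPM (log2 6.99, SE 0.26, adjusted p = 0.00038), while mpMSC-like cells were at 0.66, 0, 2.08 and 3.32 CPM and were not tested. It was seen within the Adipoq-led fine cluster, at 0.85, 0.41, 81.2 and 62.8 CPM, and in the Cfd-led one, which also holds fibroblast-like cells, at 44.8, 0, 139 and 168 CPM. The fibroblast markers rose in BMSC-like cells as well, as given above for Aldh1a2. In the purest BMSC-like cells the log2 change of Crabp2 was 3.05 (adjusted p = 0.033) and in the purest dpMSC-like cells 4.38 (adjusted p = 0.030). At low levels Crabp2 rose in chondrocyte-like cells (0.27, 0.32, 1.84 and 2.14 CPM, adjusted p = 0.0048, with a thinned share in Fracture of 0.24% beside 0.22% in erythroid-like cells) and osteoblast-like cells were at 1.85, 1.37, 2.41 and 3.56 CPM (adjusted p = 0.13). Endothelial-like cells held 1 UMI in each Control preparation and 99 and 33 UMIs in Fracture, and passed the filter through Fracture alone.

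Crabp1 (chr9:54764748-54773110, plus strand) was low throughout. BMSC-like cells held 92.0% of its Control UMIs and were at 3.30, 4.08, 1.62 and 3.08 CPM (log2 -0.44, adjusted p = 0.37). In dpMSC-like cells it was at 5.38, 6.13, 2.62 and 3.18 CPM, where the groups did not overlap (log2 -0.74, adjusted p = 0.067). In the dpMSC-like cells of the Adipoq-led cluster the log2 change of Crabp1 was -3.16. That set was chosen after seeing the data and held only 163 and 194 cells in Fracture, so the value is not read as a call. In fibroblast-like cells the Control preparations held 0 UMIs and the Fracture preparations 7 and 22 UMIs, or 0.96 and 2.42 CPM.

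Cyp26b1 (chr6:84571414-84593908, minus strand), which breaks down retinoic acid, rose 12.0-fold in smooth muscle-like cells, from 8.76 and 1.55 CPM to 62.2 and 84.5 CPM (log2 3.58, SE 0.54, adjusted p = 0.0089). The log2 change was 5.49 without Control-1, 3.07 without Control-2, 3.87 without Fracture-1 (adjusted p = 0.075) and 3.41 without Fracture-2 (adjusted p = 0.080). This made smooth muscle-like cells the class with the highest level in Fracture, followed by fibroblast-like, chondrocyte-like and BMSC-like cells, whose ranges did not overlap, whereas fibroblast-like cells were highest in Control. The smooth muscle markers summed to 39061 and 36897 CPM in smooth muscle-like cells of Control and 18796 and 20548 CPM in those of Fracture. The chondrocyte markers rose in these cells, as given above for Rbp4, and the part of either change in the Cyp26b1 rise was not tested. Chondrocyte-like cells rose from 11.3 and 12.6 CPM to 20.7 and 20.2 CPM (log2 0.93, SE 0.086, adjusted p = 0.0046) and BMSC-like cells from 3.30 and 1.72 CPM to 10.7 and 7.98 CPM (log2 2.06, SE 0.35, adjusted p = 0.0098). The fibroblast markers rose in BMSC-like cells too, as given above for Aldh1a2. Their part in the Cyp26b1 rise, and that of markers of other classes, was not tested.

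In dpMSC-like cells Cyp26b1 was at 0.36 and 0.24 CPM in Control (3 and 2 UMIs) and 16.6 and 12.7 CPM in Fracture (76 and 60 UMIs), and it passed the filter through Fracture alone (log2 5.77, SE 0.33, adjusted p = 0.00055). The mpMSC-like cells did not pass the test (log2 -0.32, adjusted p = 0.51). Cyp26b1 fell in osteoblast-like cells, from 4.43 and 5.25 CPM to 2.47 and 2.64 CPM (log2 -0.98, SE 0.19, adjusted p = 0.033). In fibroblast-like cells it was at 35.1, 42.1, 23.7 and 23.2 CPM (log2 -0.62, SE 0.14, adjusted p = 0.043), a call lost with DESeq2 and of the other sign in the Npy-led fine cluster (log2 1.13, adjusted p = 0.14). Endothelial-like cells were at 2.49, 6.52, 4.15 and 3.54 CPM (log2 -0.10, adjusted p = 0.88). Relative to smooth muscle-like cells the change differed by -4.39 in osteoblast-like (SE 0.49, adjusted p = 4.7e-06), -4.00 in fibroblast-like (adjusted p = 9.3e-06) and -2.50 in chondrocyte-like cells. It differed by -3.51 in endothelial-like cells (adjusted p = 0.00021), and the difference for BMSC-like cells did not pass (-1.42, adjusted p = 0.079).

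Dhrs3 (chr4:144892827-144928209, plus strand), the retinal reductase, moved up in chondrocyte-like cells and down in BMSC-like, endothelial-like and smooth muscle-like cells. It rose in chondrocyte-like cells from 62.9 and 62.6 CPM to 105 and 99.6 CPM (log2 0.86, SE 0.051, adjusted p = 0.0021). It fell in BMSC-like cells from 150 and 166 CPM to 68.4 and 70.2 CPM (log2 -0.999, SE 0.090, adjusted p = 0.0027). Endothelial-like cells fell from 236 and 310 CPM to 120 and 127 CPM (log2 -1.02, SE 0.16, adjusted p = 0.013). The largest fall was in smooth muscle-like cells, from 237 and 238 CPM to 70.0 and 44.2 CPM (log2 -2.04, SE 0.23, adjusted p = 0.0040). In none of these 4 classes did the groups overlap. The BMSC markers were also lower in BMSC-like cells of Fracture, as given for Aldh1a2. The smooth muscle markers were lower in smooth muscle-like cells of Fracture, as given for Cyp26b1. The part of these markers in the Dhrs3 falls was not tested.

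The changes of Dhrs3 differed between classes in 13 of 15 pairs, the most of the 9 genes, where 23.3% of all such tests passed. The SE of these differences was 0.19 to 0.26 for Dhrs3 and 0.47 to 1.02 for Rbp4, so the counts also depend on precision. The change in chondrocyte-like cells exceeded that in BMSC-like cells by 1.86 (SE 0.20, adjusted p = 2.7e-06) and that in smooth muscle-like cells by 2.89 (adjusted p = 2.1e-07). The pairs that did not pass were chondrocyte-like with fibroblast-like cells (0.36, adjusted p = 0.26) and BMSC-like with endothelial-like cells (-0.01). Fibroblast-like cells were at 114, 95.0, 137 and 142 CPM (log2 0.49, adjusted p = 0.083) and osteoblast-like cells at 29.7, 43.0, 29.6 and 29.4 CPM (log2 -0.37, adjusted p = 0.27). Over all stromal cells Dhrs3 was at 91.3, 120, 95.0 and 92.1 CPM (log2 0.03, adjusted p = 0.85). Of its UMIs over all cells, blood classes included, chondrocyte-like cells held 10.5% in Control and 69.3% in Fracture. Megakaryocyte-like cells held the highest level of any class, at 753, 1004, 787 and 597 CPM. The summed megakaryocyte markers were also lower in Fracture in the 3 classes where Dhrs3 fell, at 376 to 392 CPM in Control and 20.9 to 24.0 CPM in Fracture in smooth muscle-like, 237 to 412 and 39.1 to 41.5 CPM in endothelial-like and 121 to 400 and 24.1 to 34.3 CPM in BMSC-like cells. They were lower in chondrocyte-like cells too, where Dhrs3 rose (55.6 to 235 and 17.1 to 19.5 CPM), and their part was not tested.

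When all stromal cells were summed, where the makeup of classes and the level within them both enter, 4 of the 9 genes were higher and 2 lower (18.6% and 21.1% of all genes, 39.7% in all). Rbp4 was at 98.7, 56.4, 741 and 674 CPM (log2 3.39, SE 0.33, adjusted p = 0.0068) and Aldh1a2 at 54.6, 107, 2.71 and 3.30 CPM (log2 -4.53, adjusted p = 0.0056). Aldh1a3 rose by a log2 of 4.26, Crabp2 by 3.24 and Cyp26b1 by 1.398, and Aldh1a1 changed by -1.33 (adjusted p = 0.0089). In such sums fewer cells of a class and less RNA per cell cannot be told apart.

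Another 43 genes of the pathway were in the tables, covering retinol carriers, dehydrogenases, ester storage and nuclear receptors. In chondrocyte-like cells 8 of 31 tested were higher and 3 lower, beside 19.2% and 18% of all genes, with a median log2 change of 0.06. Fabp5, a fatty acid binding protein that can also carry retinoic acid, was at 23.1, 23.8, 83.8 and 73.8 CPM (log2 1.90, SE 0.080, adjusted p = 0.0013). Rxrg, a nuclear receptor partner, went from 3 and 0 UMIs to 53 and 63 UMIs, and Aldh8a1, another aldehyde dehydrogenase, had 0 UMIs in both Control preparations and 21 and 19 UMIs in Fracture. Both passed the filter through Fracture alone.

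In osteoblast-like cells 2 of 21 were higher and 3 lower, beside 9.35% and 6.36% of all genes. Scarb1, a lipoprotein receptor that takes up carotenoids, was at 12.0, 11.2, 25.3 and 23.0 CPM (log2 0.99, adjusted p = 0.0081). Lpl, lipoprotein lipase, fell (log2 -2.33, adjusted p = 0.032), as did Cyp1b1, a cytochrome P450 able to oxidise retinol (log2 -1.72, adjusted p = 0.048). In smooth muscle-like cells 3 of 20 were higher and 0 lower by edgeR, beside 14.3% and 12.8% of all genes, among them Fabp5 at 81.5, 92.4, 515 and 724 CPM (log2 2.85, adjusted p = 0.0022) and the reductase Dhrs4 at 37.5, 31.9, 61.5 and 56.8 CPM (log2 0.77, adjusted p = 0.027).

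In BMSC-like cells 6 of 24 were higher and 7 lower, beside 25.5% and 26.1% of all genes. Adh1, an alcohol dehydrogenase that oxidises retinol, fell from 48.2 and 54.3 CPM to 2.09 and 2.00 CPM (log2 -4.45, SE 0.13, adjusted p = 0.0011). Lpl fell by 3.93 on the log2 scale (SE 0.14, adjusted p = 0.0012) and Cyp1b1 went from 357 and 431 CPM to 52.0 and 59.1 CPM (log2 -2.63, adjusted p = 0.0017). Fabp5 rose from 47.4 and 20.5 CPM to 428 and 348 CPM (log2 3.71, SE 0.44, adjusted p = 0.0044). Fabp5 was also on the list of markers that named the septoclast-like cells. These made up a larger part of the BMSC-like cells in Fracture, as given for Rbp4, and the part of this shift was not tested. The falls of Adh1, Lpl and Cyp1b1 went with those of Aldh1a2 and of the BMSC markers in the same cells.

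In fibroblast-like cells 2 of 23 were higher and 3 lower, beside 8.54% and 7.74% of all genes. Fabp5 rose from 11.4 and 8.43 CPM to 75.9 and 71.5 CPM (log2 2.92, adjusted p = 0.0034), and the retinol dehydrogenase Dhrs9 fell from 18.7 and 10.7 CPM to 2.47 and 2.75 CPM (log2 -2.49, adjusted p = 0.017). Lpl fell by 2.92 and Cyp1b1 by 1.99 on the log2 scale (adjusted p = 0.045 and 0.044). In endothelial-like cells 3 of 25 were higher and 8 lower, beside 19.4% and 17.2% of all genes. Adh1 fell from 10.6 and 9.59 CPM to 1.44 and 1.401 CPM (log2 -2.70, adjusted p = 0.0053), Lpl by 2.11 (adjusted p = 0.0087), and Rdh16, a retinol dehydrogenase, went from 24 and 66 UMIs to 0 and 1 UMIs, passing the filter through Control alone. Cyp26a1, the other main retinoic acid hydroxylase, went from 5 and 2 UMIs to 19 and 21 UMIs and passed the filter through Fracture alone. The summed BMSC markers were lower in Fracture in fibroblast-like (596 to 712 and 242 to 261 CPM), endothelial-like (1931 to 2367 and 736 to 813 CPM) and osteoblast-like cells (124 to 194 and 40 to 46 CPM), beside the falls of Adh1, Lpl and Cyp1b1 given for these classes, and their part was not tested. Over the 6 classes Fabp5 and Scarb1 were called higher in 4 each, Cyp1b1 was lower in all 5 where it was tested and Lpl was lower in 4.

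For each gene, the likeness of pattern was given by Pearson's r of log2(CPM + 1) with 9044 genes over 24 points (6 classes by 4 preparations, which share libraries and the group effect). Rbp4 was most like 3632451O06Rik (r = 0.87), Hk2 and Spp1. Aldh1a3 was most like A230065H16Rik (0.92), Comp and Cyp51, and Rbp4 and Aldh1a3 had an r of 0.86 with each other. Aldh1a2 was most like Csmd1 (0.96), Gdpd2 and Dpep1, and Aldh1a1 like Eml2 (0.94), Tesc and Ppp1r12b. Crabp2 was most like Clec3b (0.96), Dpt and Has1, of which the first and the second were markers that named the fibroblast-like class. Stra6 was most like Npy (0.90), Sema3e and Gnpnat1, and Crabp1 like Sfrp1 (0.89), Galk2 and Tnc. Cyp26b1 was most like Rian (0.83), Anxa5 and Prune2, and Dhrs3 like Mier1 (0.90), Armc8 and Sirt5.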

How the data were processed

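The authors deposited a table of UMI counts (gene by cell barcode, not normalised) for each of the 8 libraries. The submitters' processing notes name bcl2fastq 2.19.1.403, UMI-tools 1.0.0, STAR 2.7.3a and featureCounts 1.6.4 of Subread on mm10, while the published methods name STARsolo and EmptyDrops, and which of them made these tables is not settled. Barcode selection differed between the groups, since Control tables reach down to 1 UMI per barcode and Fracture tables to 1929 UMIs.

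Genes in at least 3 cells (26180), and cells with 500 to 6000 genes and at most 25% mitochondrial UMIs, were kept (45328 of 48903 barcodes). Libraries were integrated and clustered in Seurat 5.3.0 without the 9 genes, the pathway genes and the cell cycle genes (12 components, resolution 0.1, then 13 components at 0.08 and 0.5). Scrublet in scanpy 1.11.5 called 718 doublets (1.58%), which stayed in the main analysis. UMIs were summed per class and preparation (at least 20 cells in each) and tested with the quasi-likelihood test of edgeR 4.0.16 on R 4.3.3 with TMM, its low-count filter and Benjamini-Hochberg adjustment over all genes. Class-by-group terms were adjusted over all genes and pairs of classes in place of the planned adjustment over the 9 genes. Shares of cells were compared by exact permutation tests (scipy 1.17.1) after thinning to 1000 UMIs, which left out 304 Control cells.

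All 9 genes are named, of the pathway list up to 4 called genes per class with the largest change (1 item of that list is not reported here), and for likeness the 3 genes with the highest r. The 9 genes and the lists were chosen with earlier results of these data known. Alternatives were DESeq2 1.42.0, RLE scaling, no low-count filter, leaving out each preparation, a replicate block, doublets removed, deeper cells, purer cells and a 15% mitochondrial limit. On simulated counts with an assumed spread and 200 changed genes per class, edgeR recovered 78% to 95% of 4-fold and 27% to 65% of 2-fold changes. Of its calls there 1.53% to 9.03% were false. Far more genes were called in the stromal classes of the real data, so these rates need not hold for them. Intervals are not given for UMI counts, whose size sets their precision, and p-values measure the spread between preparations only.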

Additional observations from a re-analysis of the deposited data

Results flagged for a closer look

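By the class-by-group test of edgeR the change with fracture differed between some stromal classes. Of the 15 pairs of classes, 13 differed for Dhrs3, 9 each for Rbp4, Aldh1a3 and Cyp26b1, 4 for Crabp2, 3 for Aldh1a1, 2 for Crabp1 and 1 each for Stra6 and Aldh1a2. Over all genes and pairs 23.3% of the 256110 tests passed, and the genes were chosen with earlier results known. These counts are not read as a result about the set. For Rbp4 the change in osteoblast-like cells exceeded that in BMSC-like cells by 3.62 on the log2 scale, and chondrocyte-like cells differed from osteoblast-like cells by -2.29 (adjusted p = 0.0032), whereas chondrocyte-like and BMSC-like cells did not pass (1.33, adjusted p = 0.051). The counts for Aldh1a1, Aldh1a3 and Crabp2 cover classes in which the gene passed the low-count filter through 1 group alone, and such pairs are not read as a difference. The Stra6 pair, BMSC-like and fibroblast-like cells, rests on a fibroblast-like change that was log2 -0.89 without Control-2. Both Crabp1 pairs compare with the 0 UMIs of fibroblast-like cells in Control and are not read as a difference.

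The Control tables held 1788 barcodes with under 500 genes, which no comparison used and which summed to 1864389 UMIs. In these barcodes Rbp4 was at 12.3 CPM, Aldh1a1 at 33.8 CPM, Aldh1a2 at 14.5 CPM, Cyp26b1 at 3.75 CPM and Dhrs3 at 58.5 CPM, each above 1.61 CPM, the limit that a count of 0 allows (3 UMIs of the total).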

How the results depend on the processing

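The changes of the 9 genes in the classes where each was tested gave 94 values. Under the alternatives other than leaving out a preparation, 698 results kept direction and side of the threshold, 16 lost the threshold, 28 gained it and 7 turned sign. The sign turned for Rbp4 in fibroblast-like cells with the replicate block (0.33) and in the Npy-led fine cluster (0.079), where Cyp26b1 also turned (1.13). It turned for Cyp26b1 in endothelial-like cells of at least 3000 UMIs (0.014) and, in the cells purest by markers, for Rbp4 in mpMSC-like (-0.35) and Aldh1a1 (-0.14) and Dhrs3 (0.59) in erythroid-like cells. The causes were not tested.

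With 1 preparation left out, 242 results were kept, 85 lost the threshold, 26 gained it and 13 turned sign. The number of members called then ranged from 0 to 7 in chondrocyte-like, 0 to 6 in osteoblast-like, 5 to 6 in BMSC-like, 0 to 8 in fibroblast-like, 0 to 5 in endothelial-like and 2 to 6 in smooth muscle-like cells. It ranged from 3 to 7 in the Col10a1-led and 0 to 6 in the Serpina1a-led cluster, 0 to 6 in dpMSC-like, 0 to 5 in mpMSC-like, 0 to 4 in septoclast-like, 0 to 5 in erythroid-like and 0 to 2 in granulocyte-like cells and 2 to 8 over all stromal cells, and the class-by-group tests passed ranged from 36 to 54. The counts over all genes in the same fits, beside which these ranges stand, are given below. The log2 change without 1 preparation ranged from -0.26 to 6.77 for Stra6 in chondrocyte-like, -0.90 to 1.63 for Rbp4 in fibroblast-like, -1.51 to 0.0050 for Aldh1a1 and -0.66 to 0.74 for Cyp26b1 in endothelial-like cells. It ranged from -1.23 to 0.0092 for Aldh1a1 and -1.83 to 0.59 for Aldh1a2 in the Serpina1a-led cluster, -1.28 to 0.13 for Aldh1a1 in dpMSC-like, -0.0040 to 0.85 for Aldh1a3 in septoclast-like, -0.42 to 0.96 for Aldh1a1 in erythroid-like and -7.93 to 1.82 for Aldh1a2 in granulocyte-like cells. Over all stromal cells it ranged from -1.42 to 0.21 for Stra6 and -0.10 to 0.22 for Dhrs3.

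The replicate block, with the preparation number as a block, called 2 members in osteoblast-like (against 4) and 2 in septoclast-like cells (against 1), 6 each in chondrocyte-like, BMSC-like and dpMSC-like cells and the Col10a1-led cluster, 5 each in endothelial-like and smooth muscle-like, 4 in mpMSC-like and 3 in fibroblast-like cells and the Serpina1a-led cluster, 0 in both blood classes tested and 7 over all stromal cells. Over all genes it called 4151 of 17287 in chondrocyte-like, 1159 of 13758 in osteoblast-like and 908 of 12411 in fibroblast-like cells. It called 1682 of 10511 genes in smooth muscle-like and 482 of 10292 in septoclast-like cells. In the Col10a1-led cluster it called 3105 of 16707 genes and in the Serpina1a-led cluster 280 of 14079. With the block, 3530 genes were higher and 3460 lower of 14831 in BMSC-like cells, and 2069 and 1706 of 14262 in endothelial-like cells. The counts were 3535 and 3269 of 13604 in dpMSC-like, 1412 and 1111 of 12162 in mpMSC-like cells and 3001 and 3310 of 19815 over all stromal cells. In both blood classes no gene was called. The preparations share only a number, since the correlation of Control-1 and Fracture-1 deviations was -0.01 to 0.06 in the stroma, 0.31 in erythroid-like and -0.04 in granulocyte-like cells.

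Without the low-count filter 8 members were called in fibroblast-like (3850 of 21013 genes), 4 in septoclast-like (1917 of 18926) and 3 in erythroid-like cells (375 of 22272). DESeq2 called 2 each in erythroid-like (376 of 11988 genes) and granulocyte-like cells (1167 of 12498). With doublets removed 1 was called in granulocyte-like cells (559 of 12365 genes). In the purest cells 3 were called in dpMSC-like cells (843 of 12362 genes). In fibroblast-like cells of the Npy-led cluster 2 were called (754 genes higher and 702 lower of 9299). That alternative was chosen after seeing the data, as was the Adipoq-led cluster. Septoclast-like cells were too few for the purity alternative. Without thinning, the Rbp4 share was 27.9% in Control and 77.9% in Fracture chondrocyte-like and 1.20% and 18.9% in erythroid-like cells, and the Aldh1a3 share 10.9% and 36.4%, and 0.217% and 5.33%.

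Over all genes, the count called differed by more than 1.5 times from the main count in these cases. The replicate block called 4151 genes against 6433 in chondrocyte-like, 3105 against 5106 in the Col10a1-led and 280 against 1874 in the Serpina1a-led cluster, 1159 against 2162 in osteoblast-like, 908 against 2021 in fibroblast-like, 1682 against 2849 in smooth muscle-like and 482 against 801 in septoclast-like cells. The purest cells gave 3292 against 7647 in BMSC-like, 843 against 7379 in dpMSC-like and 1019 against 3429 in mpMSC-like cells, and the Adipoq-led cluster gave 4563 in dpMSC-like cells, all from fewer cells. No filter gave 3850 in fibroblast-like, 1917 in septoclast-like and 375 in erythroid-like cells, and removing doublets gave 559 in granulocyte-like cells. DESeq2 gave 376 in erythroid-like and 1167 in granulocyte-like cells against 0 by edgeR. With 1 preparation left out the count ran from 0 to 8964 in chondrocyte-like, 0 to 5151 in osteoblast-like, 2636 to 9477 in BMSC-like, 0 to 4391 in fibroblast-like, 0 to 7289 in endothelial-like and 535 to 3856 in smooth muscle-like cells. It ran from 343 to 7764 in the Col10a1-led and 1 to 5086 in the Serpina1a-led cluster, 0 to 7965 in dpMSC-like, 0 to 4957 in mpMSC-like, 0 to 1891 in septoclast-like, 0 to 2685 in erythroid-like and 0 to 1363 in granulocyte-like cells and 173 to 11926 over all stromal cells (main 7862).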

Other observations

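In the blood classes that remained after bead depletion, Dhrs3 was at 173, 19.5, 25.3 and 9.93 CPM in erythroid-like cells of Control-1, Control-2, Fracture-1 and Fracture-2, where Control-1 stood above the other preparations. Rbp4 in granulocyte-like cells was at 4.31 and 0.73 CPM in Control and 122 and 55.2 CPM in Fracture (log2 5.06, adjusted p = 0.12 with edgeR, 2.9e-06 with DESeq2, and log2 6.84 without Control-1 and 4.36 without Control-2 or without Fracture-1), beside a median of 14.0% and 12.1% of the level over all cells for the 9 chondrocyte markers in the Fracture preparations, where Rbp4 was at 16.8% and 8.4%.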
